A study of Mus musculus with 62 samples.

Results

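Fbxo3, Fbxo7, Fbxo9, Fbxo11, Fbxo25, Fbxo44, Fbxl22, Fbxl5, Fbxw7 and Fbxw11 encode F-box proteins, the adaptor subunits that bring substrates to a family of ubiquitin ligases. They were listed by gene symbol as F-box genes outside the ligases classically followed in muscle atrophy. They were chosen with earlier results of these data known, and other such F-box genes are not among them. They are 10 of the 47643 genes in the expression table and 10 of its 83 F-box genes. All 10 passed the filter on low values and were tested among 13529 genes.

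Messenger RNA of the soleus, a slow postural muscle of the lower leg, was sequenced from female mice labelled as 2 months old. The CAC group was injected with cachectic melanoma cells, the NCAC group with non-cachectic melanoma cells, and the Con group was mock injected, and each was sampled 2, 4, 6 and 8 weeks later. There were 12 groups and 62 libraries in all: 7 in CAC at 8 weeks and 5 in every other group. The sample labels give the strain as C57BL6/J or C57BL/6J, whereas the design text names NCI Ath/nude mice, an athymic strain lacking mature T cells, and a protocol note mentions LLC cells; the cell lines are not named, and no transgene is mentioned. The labels call the libraries biological replicates. The values are TPM (length-scaled transcript abundance), a level scaled by transcript length and by a fixed library total, so that levels of different genes can be set side by side.

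An F-box protein binds Skp1 through its F-box, Skp1 binds the cullin Cul1, and Cul1 holds the RING protein Rbx1 with its ubiquitin-loaded partner enzyme; the assembly is called an SCF ligase. The second domain of the F-box protein picks the substrate: WD40 repeats in the Fbxw class, leucine-rich repeats in the Fbxl class and other folds in the Fbxo class. In skeletal muscle the best known member is Fbxo32 (atrogin-1), which rises in many kinds of wasting, while the 10 genes described here have been studied largely for other jobs, such as iron sensing, mitophagy, NF-kB signalling and the turnover of cell cycle proteins.

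Depth is unknown, because TPM does not keep it. All 12 slow fibre and soleus markers were detected, and their summed level lay between 36645 and 48588 TPM in the 6-week Con libraries. Libraries of week 8 differed from those of the first 3 time points in all 3 treatments: macrophage markers summed to 132 to 161 TPM in Con at 6 weeks and to 1199 to 2340.4 TPM in Con at 8 weeks. The 8-week treatment comparisons were fitted on the 17 libraries of that week alone. Earlier work on these data had found a spread shared with the other weeks too small for week 8. Comparisons of 8 with 6 weeks still use the spread shared by all 62 libraries, which bears on their p-values. Week and sampling occasion cannot be told apart. Within CAC at 8 weeks, replicate 3 had the highest slow fibre sum, 39767 TPM against 17044 to 28030 TPM in the other 6 libraries, and the highest level of Fbxo3, Fbxo25, Fbxl22 and Fbxw7. The 8-week differences of Fbxl22, Fbxo25 and Fbxw7 from Con, and of Fbxl22 from NCAC, are given with and without it. Those of Fbxo3 are given only with it.

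The members covered a wide range of abundance in soleus. Over all 62 libraries the median level was 47.0 TPM for Fbxo9, 31.8 for Fbxo3, 29.3 for Fbxo11, 28.0 for Fbxw11, 15.8 for Fbxw7, 12.7 for Fbxo25, 9.87 for Fbxl5, 4.14 for Fbxo44, 3.72 for Fbxo7 and 1.05 for Fbxl22. Fbxl22 was therefore close to the filter of 1 TPM, which it reached in 34 of 62 libraries. Fbxo11 varied least between groups, with a ratio of 1.20 between its highest and lowest group mean; the ratio was 1.34 for Fbxw11, 1.54 for Fbxl5, 1.87 for Fbxw7 and 2.61 for Fbxl22. When the 12 group means of a gene were ranked, nearly all of the 11 steps between neighbours were smaller than the larger of the 2 SDs: 11 of 11 for Fbxo3, Fbxo7, Fbxo11, Fbxo44, Fbxl22, Fbxw7 and Fbxw11, and 10 of 11 for Fbxo9, Fbxo25 and Fbxl5. The spread between libraries of one group was small for most members, with a median coefficient of variation of 7.75% for Fbxo3 and 8.30% for Fbxw11, and large for Fbxl22 (30.3%) and Fbxo44 (53.7%).

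**Figure D1:**
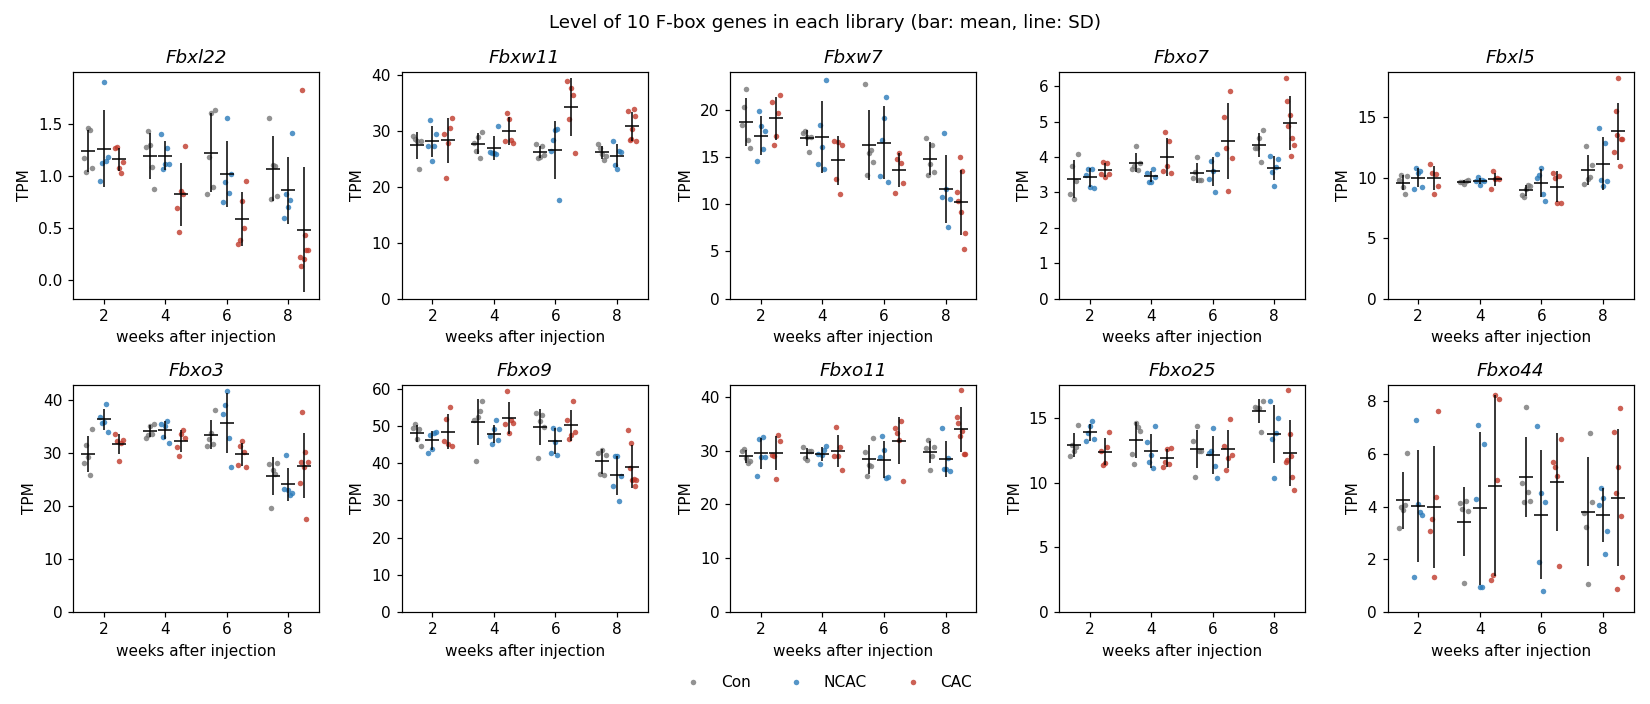
Level in TPM (vertical axes, 1 panel per gene) of the 10 F-box genes in each of 62 libraries, by week after injection and treatment; points are libraries, bars are group means and lines show the SD. The Fbxl22 mean at 2 and 8 weeks is 1.16 and 0.483 TPM in CAC, 1.26 and 0.861 TPM in NCAC, and 1.23 and 1.07 TPM in Con. Fbxl5 is highest in CAC at 8 weeks (13.8 TPM), and Fbxo44 is scattered in every group.

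Fbxl22 and Fbxw11 moved in opposite directions in CAC muscle, and their promoters are shown because the results below turn on these genes. The 250 bases before each RefSeq start (GRCm38.p6) are printed 5′ to 3′ on the strand of the gene, with the GC box GGGCGG or its reverse complement in capitals; Fbxl22 lies at chr9:66508459-66514593 on the minus strand and Fbxw11 at chr11:32642724-32746816 on the plus strand (mm10, GENCODE M21).
Fbxl22, chr9:66514594-66514843, minus strand: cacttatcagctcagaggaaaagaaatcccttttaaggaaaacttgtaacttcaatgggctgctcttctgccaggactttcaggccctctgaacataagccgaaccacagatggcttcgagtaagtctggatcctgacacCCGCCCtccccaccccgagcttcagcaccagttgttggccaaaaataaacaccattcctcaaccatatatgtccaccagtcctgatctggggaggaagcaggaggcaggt
Fbxw11, chr11:32642305-32642554, plus strand: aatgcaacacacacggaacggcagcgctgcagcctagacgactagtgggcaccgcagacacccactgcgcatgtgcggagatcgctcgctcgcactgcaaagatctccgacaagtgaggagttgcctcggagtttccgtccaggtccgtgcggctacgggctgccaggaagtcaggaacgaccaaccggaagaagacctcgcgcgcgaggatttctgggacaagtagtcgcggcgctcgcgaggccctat
The Fbxl22 stretch held 1 GC box match, read on the reverse strand, and 50.4% G or C; the Fbxw11 stretch held no match and 62% G or C, against a median of 52.4% over all promoters in the table. Both strands were searched for 4 motifs in the 14 promoter entries that matched 7 of the 10 members. The STAT motif TTCNNNGAA was in 0 of 14 entries and in 7.02% of all 32851 promoters, and the FoxO motif GTAAACA in 0 of 14 and 3.17%. The muscle E-box CAGCTG was in 1 of 14 against 13%, and the GC box was in 6 of 14 against 32.7%. The E-box match was in the Fbxo7 entry chr10:86021904-86022153, which runs past the annotated gene start at chr10:86021972. The Fbxo7 entry upstream of it, chr10:86021679-86021928, held no E-box match. A match describes the letters of this window and is not a binding site.

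Fbxl22, a leucine-rich repeat adaptor of heart and skeletal muscle that sits at the sarcomeric Z-disc and is known to target the Z-disc proteins alpha-actinin-2 (Actn2) and filamin C (Flnc), was lower in CAC than in Con muscle at 6 weeks. In Con at 6 weeks the levels in replicates 1 to 5 were 0.821, 1.18, 1.60, 0.891 and 1.63 TPM. In CAC at 6 weeks they were 0.343, 0.384, 0.760, 0.500 and 0.952 TPM. The CAC libraries were below the lowest Con library in 4 of 5 cases, and replicate 5 lay inside the Con range, so the groups overlapped. The means were 0.588 ± 0.260 (SD, n = 5) and 1.22 ± 0.381 TPM (SD, n = 5), a ratio of 2.08 between Con and CAC, and all 5 CAC libraries were below the Con mean. On the log2(TPM + 1) scale, which understates changes of a gene this low, Fbxl22 fell by 0.48 (SE 0.152, limma adjusted p = 0.0170), and with a pseudocount of 0.1 it fell by 0.98 (limma adjusted p = 0.0157). The call was lost without CAC replicate 1 (limma adjusted p = 0.0746), Con replicate 3 (0.0546) or Con replicate 5 (0.0520).

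In NCAC at 6 weeks Fbxl22 measured 0.746, 0.940, 1.56, 0.836 and 1.01 TPM, a range that overlapped both other groups. All 5 CAC libraries were below the NCAC mean of 1.02 TPM, with a difference of -0.35 that missed the threshold (limma adjusted p = 0.0770). The same difference passed in a fit without the libraries of week 8 (limma adjusted p = 0.0158). CAC muscle already had a mean of 0.821 TPM at 4 weeks, when its libraries measured 0.687, 0.460, 0.852, 0.821 and 1.28 TPM and those of Con 1.28, 1.43, 1.30, 1.08 and 0.868 TPM. There, 4 of 5 CAC libraries lay under the lowest Con library, but the difference of -0.28 did not pass (limma adjusted p = 0.528). At 2 weeks the CAC and Con means were 1.16 and 1.23 TPM. The ratio of the Con to the CAC mean was thus 1.07, 1.45, 2.08 and 2.21 at 2, 4, 6 and 8 weeks. The change of the CAC minus Con difference from 2 to 6 weeks was -0.44 (SE 0.21, unadjusted p = 0.047, limma adjusted p = 0.498).

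At 8 weeks Fbxl22 ranged in CAC from 0.131 to 1.83 TPM with a median of 0.285 TPM, and in Con it measured 1.56, 0.776, 1.10, 1.10 and 0.808 TPM. Of the 7 CAC libraries, 6 lay between 0.131 and 0.426 TPM, below every Con library, and replicate 3 at 1.83 TPM lay above every Con library. The difference of -0.54 (SE 0.194) did not pass the test (limma adjusted p = 0.0835), whereas without replicate 3 it was -0.71 (limma adjusted p = 0.00186) and with a pseudocount of 0.1 it was -1.36 (0.0462). Against NCAC, with 0.593, 0.829, 0.702, 0.764 and 1.41 TPM, the difference was -0.38 (limma adjusted p = 0.164), and -0.55 without replicate 3 (limma adjusted p = 0.00640). The 3′ end of Fbxl22 overlaps Herc1 on the opposite strand over 317 bases. The library kit keeps strand, but whether the counting used it is not given in the sources used here, so reads from that stretch may belong to either gene.

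The named targets of Fbxl22 did not pass the test at 6 weeks: Actn2 differed by 0.33 (limma adjusted p = 0.256) and Flnc by 0.77 (limma adjusted p = 0.0583) between CAC and Con. These genes were picked after their values were seen.

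Fbxw11 (beta-TrCP2), which recognises phosphorylated IkB and beta-catenin, was higher in CAC than in both other groups at 6 weeks and than in NCAC at 8 weeks. The 6-week levels were 27.7, 25.3, 25.4, 27.3 and 25.8 TPM in Con. They were 38.9, 32.2, 37.8, 36.5 and 26.2 TPM in CAC. NCAC measured 26.3, 28.4, 30.2, 30.4 and 17.7 TPM. Replicates 1 to 4 of CAC were above every Con and NCAC library, and replicate 5 was inside the range of both. The means were 34.3 ± 5.22 in CAC and 26.3 ± 1.12 TPM in Con (SD, n = 5 each), a ratio of 1.30 and a rise of 0.36 on the log2(TPM + 1) scale (SE 0.099, limma adjusted p = 0.00746). Against NCAC, which shares the CAC libraries, the rise was also 0.36 (SE 0.099, limma adjusted p = 0.00533). The CAC against Con call held without each of the 10 libraries in turn, with a highest limma adjusted p of 0.0474, but the call against NCAC was lost without NCAC replicate 5, the library at 17.7 TPM (0.23, limma adjusted p = 0.0640).

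At 8 weeks Fbxw11 ranged from 28.2 to 34.0 TPM in CAC with a median of 30.3 TPM. Con measured 27.6, 27.0, 25.9, 24.9 and 25.5 TPM, and NCAC 28.2, 24.0, 23.1, 26.4 and 26.2 TPM. As for 3.98% of all genes against Con and 6.06% against NCAC, all 7 CAC libraries were above every library of the other group. The margin to the highest NCAC library was under 0.1 TPM. The difference passed the test against NCAC (0.26, SE 0.080, limma adjusted p = 0.0284) and not against Con (0.23, SE 0.080, limma adjusted p = 0.0788). The call against NCAC was lost without CAC replicate 1 (0.0528) or 5 (0.0568) or NCAC replicate 2 (0.0613) or 3 (0.0745), all limma adjusted p-values.

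Scaling bears on Fbxw11 at both weeks. At 6 weeks most called genes were higher in CAC, and median-of-ratios rescaling, which puts the median gene of each library at the same level, moved the median difference of all genes by 0.152 against Con and by 0.154 against NCAC. After it the Fbxw11 differences at 6 weeks were 0.17 against Con (limma adjusted p = 0.161) and 0.17 against NCAC (0.144), and at 8 weeks 0.05 against NCAC (0.705), where the median difference of all genes moved by 0.177. The rescaled Fbxl22 difference against Con at 6 weeks was -0.57 (limma adjusted p = 0.00827). Fbxw11 was thus higher in CAC on the deposited scale, while the direction was kept and the calls were not when the median gene was held level.

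Fbxw7, the other WD40 adaptor, takes phosphorylated cyclin E, Myc, Notch and Mcl1 to degradation and acts as a tumour suppressor in many tissues. Its means were lower in CAC than in Con at 6 and 8 weeks, without a call. Its 6-week levels were 22.7, 13.1, 15.4, 15.7 and 14.49 TPM in Con and 11.2, 14.8, 15.4, 14.3 and 12.2 TPM in CAC, which overlap. The difference of -0.23 had a limma adjusted p of 0.342. At 8 weeks CAC ranged from 5.25 to 15.01 TPM with a median of 10.3 TPM, and Con measured 17.01, 13.1, 14.2, 16.2 and 13.4 TPM. All CAC libraries except replicate 3 were below the Con mean of 14.8 TPM, and the difference was -0.55 (SE 0.214, limma adjusted p = 0.106), or -0.65 without replicate 3 (limma adjusted p = 0.0453). NCAC at 8 weeks was also lower, at 10.7, 17.5, 11.6, 7.60 and 10.5 TPM, so that CAC against NCAC gave -0.19 (limma adjusted p = 0.570). Fbxw7 (chr3:84815268-84979198, plus strand) lies within Gm37240, a gene annotated as protein coding on the opposite strand.

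**Figure D2:**
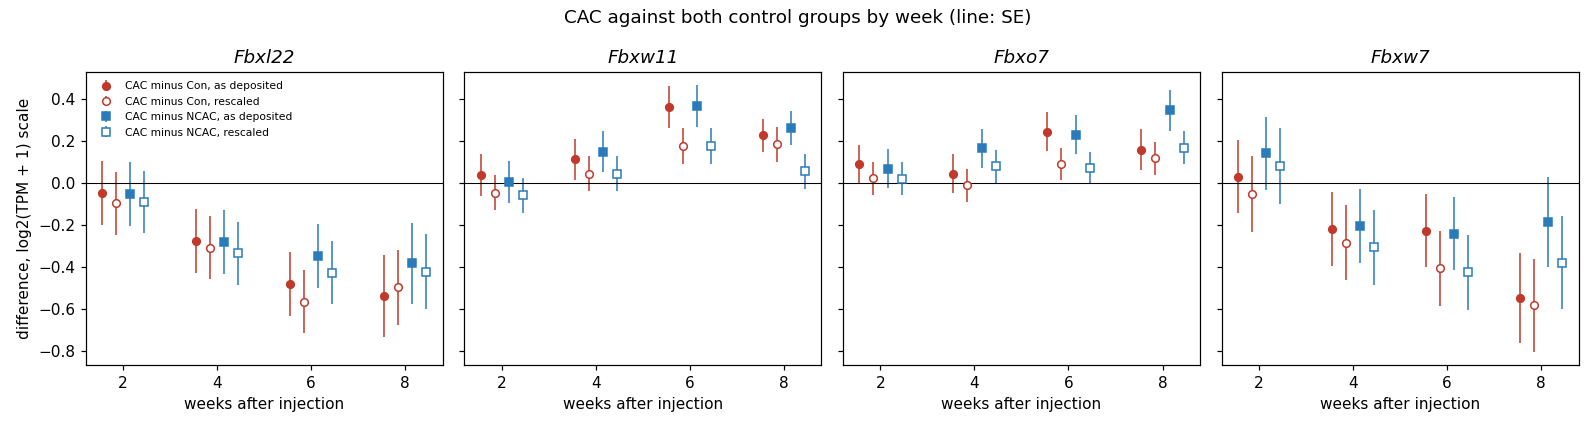
Difference of CAC from Con and from NCAC in log2(TPM + 1) (vertical axis) at 2, 4, 6 and 8 weeks for Fbxl22, Fbxw11, Fbxo7 and Fbxw7, with standard errors; filled symbols are the deposited scale and open symbols the values after median-of-ratios rescaling. Fbxl22 moves from -0.05 at 2 weeks to -0.54 at 8 weeks against Con, and the open symbols of Fbxw11 and Fbxo7 lie below the filled ones at 6 weeks.

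Fbxo7 is an adaptor that binds the proteasome regulator PI31 and takes part in parkin-dependent mitophagy; its human counterpart is a gene of familial parkinsonism. It was higher in CAC than in Con at 6 weeks and than in NCAC at 8 weeks. In CAC at 6 weeks its levels were 5.13, 4.25, 3.05, 5.86 and 3.96 TPM, against 3.41, 3.59, 4.01, 3.36 and 3.36 TPM in Con. Of the CAC libraries, 3 were above every Con library and replicate 3 was below every one. The mean was 4.45 ± 1.08 TPM in CAC and 3.54 ± 0.279 TPM in Con (SD, n = 5 each), a difference of 0.24 (SE 0.093) that passed at a limma adjusted p of 0.0499. That call was lost in 7 of 10 fits that left out 1 library: CAC replicate 1, 2 or 4 or Con replicate 1, 2, 4 or 5, with limma adjusted p-values up to 0.260. Against NCAC at 6 weeks, with 3.37, 3.896, 3.599, 3.02 and 4.08 TPM, the difference was 0.23 (limma adjusted p = 0.0578). It passed in the fit without the libraries of week 8 (limma adjusted p = 0.0414).

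The 8-week separation of Fbxo7 was from NCAC. CAC ranged from 4.04 to 6.24 TPM with a median of 4.88 TPM, and NCAC measured 4.02, 3.58, 3.17, 3.71 and 3.95 TPM. All 7 CAC libraries were above every NCAC library, which was so upwards for 6.06% of all genes. The means were 4.97 and 3.69 TPM, a ratio of 1.35, and Fbxo7 rose by 0.34 on the log2(TPM + 1) scale (SE 0.098, limma adjusted p = 0.0205), a call that was lost without NCAC replicate 3 (limma adjusted p = 0.0539). Con at 8 weeks, at 4.25, 4.25, 4.55, 3.85 and 4.75 TPM, overlapped both. After rescaling, the differences were 0.09 against Con at 6 weeks (limma adjusted p = 0.483) and 0.17 against NCAC at 8 weeks (0.169). Fbxo7 (chr10:86021972-86051873, plus strand) overlaps the antisense gene A230060F14Rik over 358 bases.

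In numbers, 2 of 10 members rose in CAC against Con at 6 weeks, Fbxw11 and Fbxo7, against 21.7% of all genes tested, and 1 of 10 fell, Fbxl22, against 2.42% of all genes tested. The median difference of the members was 0.01 and that of all genes 0.16. Against NCAC at 6 weeks 1 member rose, Fbxw11 (24.6% of all genes), and 0 fell (3.19%, with 27.8% of all genes in either direction). There 4 members had an unadjusted p under 0.05, as did 5474 of all 13529 genes. At 8 weeks 0 members passed against Con in either direction (6.31% of all genes higher, 4.26% lower). An unadjusted p under 0.05 was found for 5 (Fbxo25, Fbxl22, Fbxl5, Fbxw7 and Fbxw11) and for 3617 of all 13529 genes. Without CAC replicate 3, 3 members were lower against Con (Fbxl22, Fbxo25 and Fbxw7; 6.39% of all genes) and 0 higher (8.6%). In the fit that estimates the spread from all 62 libraries, the same 3 were lower (14.9%) and Fbxl5 was higher (16.2%). Against NCAC at 8 weeks 2 rose, Fbxw11 and Fbxo7 (19.3%), and 0 fell (2.68%; 21.9% in either direction); the same 2 were the members whose groups did not overlap, as was so upwards for 6.06% of all genes. The fit on all 62 libraries gave 4 higher against NCAC at 8 weeks (Fbxo7, Fbxo11, Fbxl5 and Fbxw11; 35.4%) and 1 lower (Fbxl22; 7.72%). The members' shares of higher calls in the fits as designed lay near or under these backgrounds. The backgrounds themselves moved with single libraries: of all genes 3269 passed for CAC against Con at 6 weeks, and leaving out CAC replicate 1, CAC replicate 4 or Con replicate 2 gave 1293, 1838 and 2173. For CAC against Con at 8 weeks 1430 passed, and between 795 and 903 without Con replicate 1, 2, 3, 4 or 5 or CAC replicate 2. For CAC against NCAC at 6 weeks 3760 passed, and 2031 without CAC replicate 1.

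After rescaling the counts were different, and so were their backgrounds. Against Con at 6 weeks 0 members were higher and 2 lower (Fbxl22, and Fbxo3 at -0.35, limma adjusted p = 0.0266), with 6.73% of all genes higher and 6.73% lower. Against NCAC at 6 weeks 0 were higher (9.3%) and 3 lower (Fbxl22 at -0.43, Fbxo3 at -0.43 and Fbxl5 at -0.22; 10%). Against Con at 8 weeks 0 were higher (5.89%) and 1 lower (Fbxo25 at -0.37, limma adjusted p = 0.0278; 7.08%). Against NCAC at 8 weeks 0 were higher (5.15%) and 1 lower (Fbxo25 at -0.35, limma adjusted p = 0.0371; 6.05%).

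Markers of other cells moved between the same groups. At 6 weeks 5 of 12 macrophage markers, 4 of 10 adipocyte markers and 4 of 5 tested neutrophil markers were higher in CAC than in Con, and 3 of 10 tenocyte markers were lower. These marker counts are on the deposited scale, where 21.7% of all genes were higher and 2.42% lower. The macrophage sum was 223 to 281 TPM in CAC and 132 to 161 TPM in Con, and the slow fibre sum was 37180 to 57097 TPM in CAC and 36645 to 48588 TPM in Con. At 8 weeks 3 of 12 slow fibre markers and 5 of 10 tenocyte markers were lower in CAC. Of all genes, 4.26% were lower in CAC than in Con at that week. In a whole muscle, fewer cells of a type and less RNA per cell cannot be told apart, and the part of these markers in the results for the F-box genes was not tested.

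**Figure D3:**
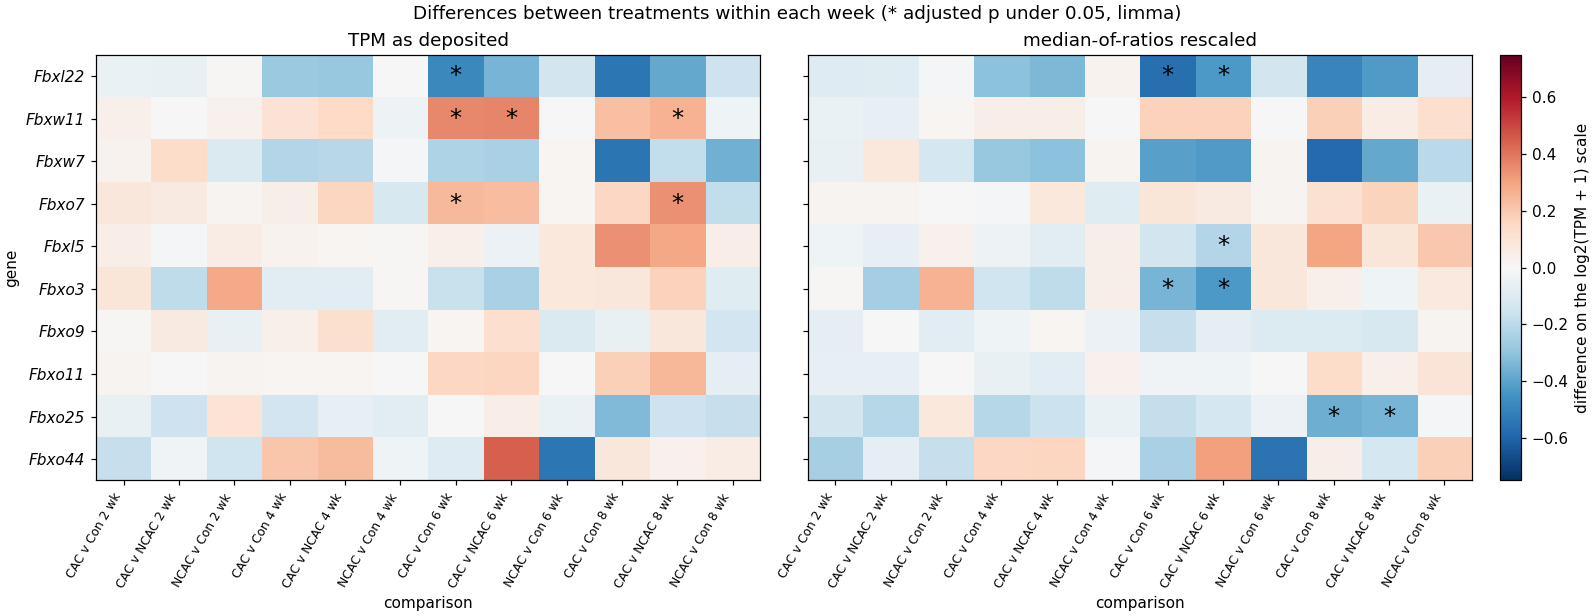
Differences in log2(TPM + 1) for 10 F-box genes (rows) in the 12 treatment comparisons (columns), on the deposited scale in the left panel and after median-of-ratios rescaling in the right panel; colour gives the size and direction, and asterisks mark adjusted p under 0.05. Asterisks for higher levels are found in the left panel, at Fbxw11 and Fbxo7, and the right panel has asterisks for lower levels only.

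Fbxl5 is the iron sensor of the family: its hemerythrin domain holds iron and oxygen, and when iron is ample the adaptor sends IRP2 (Ireb2), the RNA-binding regulator of ferritin and transferrin receptor, to degradation. In CAC muscle it was the member with the clearest rise between 6 and 8 weeks. At 6 weeks CAC measured 10.4, 9.96, 7.92, 10.1 and 7.90 TPM, and at 8 weeks it ranged from 10.96 to 18.2 TPM with a median of 13.2 TPM. All 7 later libraries were above all 5 earlier ones, which was so upwards for 18.8% of all genes in this comparison. The rise was 0.52 (SE 0.087, limma adjusted p = 1.59e-06), ranged from 0.46 to 0.57 when single libraries were left out, and was 0.32 after rescaling (limma adjusted p = 5.02e-05).

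Con muscle also had more Fbxl5 at 8 weeks, with 9.47, 12.6, 9.91, 10.1 and 11.1 TPM against 8.60, 8.36, 9.04, 9.43 and 9.34 TPM at 6 weeks. As for 44.5% of all genes in this comparison, the later Con libraries were all above the earlier ones, the lowest by a margin under 0.1 TPM. That difference was 0.22 (limma adjusted p = 0.0391), was lost without Con replicate 1, 2 or 3 of week 6 or replicate 2 or 5 of week 8 (highest limma adjusted p = 0.161), and was -0.11 after rescaling (limma adjusted p = 0.162). In NCAC the difference was 0.19 (limma adjusted p = 0.0721). Within week 8, Fbxl5 was above the Con mean in 7 of 7 CAC libraries, with a difference of 0.34 (SE 0.129) that did not pass (limma adjusted p = 0.0990), and above NCAC by 0.29 (limma adjusted p = 0.116). The change of the CAC minus Con difference from 6 to 8 weeks was 0.30 (limma adjusted p = 0.191) on the deposited scale and 0.43 (limma adjusted p = 0.0144) after rescaling. Fbxl5 lies at chr5:43744615-43821638 on the minus strand and overlaps Bst1 on the opposite strand over 2754 bases.

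Of 11 iron genes, 1 rose and 1 fell in CAC against Con at 6 weeks (0 and 1 after rescaling). Of all genes, 21.7% rose and 2.42% fell (6.73% each after rescaling). The median was 0.17 against 0.16 over all genes. The ferritin light chain gene Ftl1 rose by 0.66 (limma adjusted p = 0.0232), and Cisd1, an iron-sulphur protein of the outer mitochondrial membrane, fell by 0.26 (limma adjusted p = 0.0209). The Fbxl5 substrate Ireb2 differed by 0.27 (limma adjusted p = 0.0765). At 8 weeks the smallest adjusted p of the list between CAC and Con was that of the transferrin receptor gene Tfrc, which differed by -1.43 (limma adjusted p = 0.0530; -1.46 and 0.0484 after rescaling). Between 6 and 8 weeks 7 iron genes rose and 0 fell in Con (4 and 2 after rescaling), and 7 rose and 2 fell in CAC (4 and 3). Of all genes, 52.3% rose and 7.72% fell in Con, and 42.6% rose and 13.2% fell in CAC. Among the CAC changes Ftl1 rose by 1.71 and Ireb2 by 0.28 (limma adjusted p = 0.0220; 0.07 and 0.498 after rescaling), and Tfrc fell by 0.91 (limma adjusted p = 0.0481).

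Fbxo3, whose known substrates include another F-box protein, Fbxl2, fell between 6 and 8 weeks in both groups without cachectic cells. Con measured 31.3, 32.5, 33.8, 31.7 and 38.1 TPM at 6 weeks and 28.0, 19.5, 26.8, 26.0 and 28.1 TPM at 8 weeks. All later Con libraries were below all earlier ones, which was so downwards for 5.79% of all genes. Fbxo3 fell by 0.38 (SE 0.108, limma adjusted p = 0.00217). NCAC went from 37.4, 39.1, 41.6, 32.9 and 27.3 TPM to 23.1, 29.5, 23.0, 22.1 and 22.4 TPM. Here replicate 5 of week 6 and replicate 2 of week 8 overlapped, and the fall was 0.54 (limma adjusted p = 2.41e-05). In CAC the range was 27.3 to 32.3 TPM at 6 weeks and 17.5 to 37.7 TPM at 8 weeks, and the difference, which did not pass on the deposited scale, was -0.34 after rescaling (limma adjusted p = 0.00347). At 2 weeks Fbxo3 was higher in NCAC than in Con by 0.28 at an unadjusted p of 0.0115, which did not survive adjustment (limma adjusted p = 1.00).

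Fbxo9, the most abundant member, is known for directing Tel2 and Tti1, partners of the mTOR kinases, to degradation. It was lower at 8 than at 6 weeks in all 3 treatments. Con measured 53.6, 41.3, 51.4, 53.0 and 49.8 TPM at 6 weeks and 42.9, 37.0, 43.7, 37.0 and 42.2 TPM at 8 weeks, overlapping through replicate 2 of week 6. NCAC went from 42.8, 49.6, 45.8, 42.3 and 49.4 TPM to 33.8, 41.9, 41.9, 29.8 and 36.7 TPM, with no overlap, which was so downwards for 6.3% of all genes. CAC went from 51.8, 46.5, 47.6, 56.9 and 48.4 TPM to a range of 34.0 to 48.9 TPM with a median of 35.8 TPM, overlapping at its top. The falls were 0.29 in Con (SE 0.090, limma adjusted p = 0.00481), 0.32 in NCAC (limma adjusted p = 0.00188) and 0.36 in CAC (limma adjusted p = 0.000258). Fbxo9 showed no call between treatments, and its 6-week difference between CAC and Con was 0.01 (limma adjusted p = 0.930).

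Fbxo25, a relative of atrogin-1 found in striated muscle and brain, was higher in Con at 8 weeks. Con measured 13.2, 10.4, 14.4, 12.4 and 12.5 TPM at 6 weeks and 15.9, 15.7, 15.8, 13.9 and 16.3 TPM at 8 weeks, where replicate 4 fell inside the earlier range. The rise was 0.29 (limma adjusted p = 0.0117), was lost without Con replicate 2 of week 6 (limma adjusted p = 0.0591), and was -0.055 after rescaling (0.572). In CAC at 8 weeks Fbxo25 ranged from 9.39 to 17.2 TPM with a median of 11.7 TPM. Of 7 CAC libraries, 6 were below the Con mean, the exception being replicate 3; the difference was -0.33 (SE 0.129, limma adjusted p = 0.107) and -0.41 without that library (limma adjusted p = 0.0248).

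Fbxo11, an adaptor known for the turnover of Bcl6, had the smallest ratio between group means of the 10. Its group means ran from 28.3 ± 3.39 TPM in NCAC at 6 weeks (SD, n = 5) to 33.9 ± 4.22 TPM in CAC at 8 weeks (SD, n = 7). No treatment comparison passed; the smallest adjusted p was that of CAC against NCAC at 8 weeks with 0.25 (limma adjusted p = 0.0829). There 7 of 7 CAC libraries were above the NCAC mean of 28.4 TPM, but the highest NCAC library, at 34.2 TPM, was above the CAC median of 33.6 TPM.

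Between 6 and 8 weeks, 3 members rose and 2 fell in Con (Fbxl5, Fbxo25 and Fbxo7 higher; Fbxo3 and Fbxo9 lower), against 52.3% of all genes higher and 7.72% lower (60% in either direction). In NCAC 0 rose and 3 fell (Fbxo3, Fbxo9 and Fbxw7), against 41.3% and 17.9% (59.1%). In CAC 1 rose and 2 fell (Fbxl5; Fbxo9 and Fbxw7), against 42.6% and 13.2% (55.7%). Fbxo7 in Con differed by 0.23 (limma adjusted p = 0.0294), a call lost in 5 of 10 fits that left out 1 library. Fbxw7 fell by 0.49 in NCAC (limma adjusted p = 0.0137) and by 0.43 in CAC (limma adjusted p = 0.0193). The Fbxw7 call in CAC was lost without replicate 3 of week 6 (limma adjusted p = 0.0550) or replicate 6 (0.0858) or 7 (0.0557) of week 8, and that in NCAC without replicate 4 of week 6 (0.0603) or of week 8 (0.0827). With 1 variance per group, a setting added after seeing the data, Fbxw7 passed neither in NCAC (limma adjusted p = 0.0775) nor in CAC (0.0725). The other member calls between 6 and 8 weeks held in that setting. Rescaling moved the median of all genes in Con by 0.303. After it, 0 members were higher (32% of all genes) and 5 lower (29.5%) in Con, with Fbxl5, Fbxo25 and Fbxo7 at -0.11, -0.055 and -0.062, and Fbxo3 at -0.73 and Fbxo9 at -0.65. Beside these differences, 12 of 12 macrophage, 9 of 10 fibro-adipogenic and 8 of 10 adipocyte markers were higher at 8 weeks in each treatment, and 6, 9 and 11 of 12 slow fibre markers were lower in Con, NCAC and CAC. The slow fibre sum in Con went from 36645 to 48588 TPM down to 30132 to 36504 TPM. The part of these markers in the result was not tested.

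**Figure D4:**
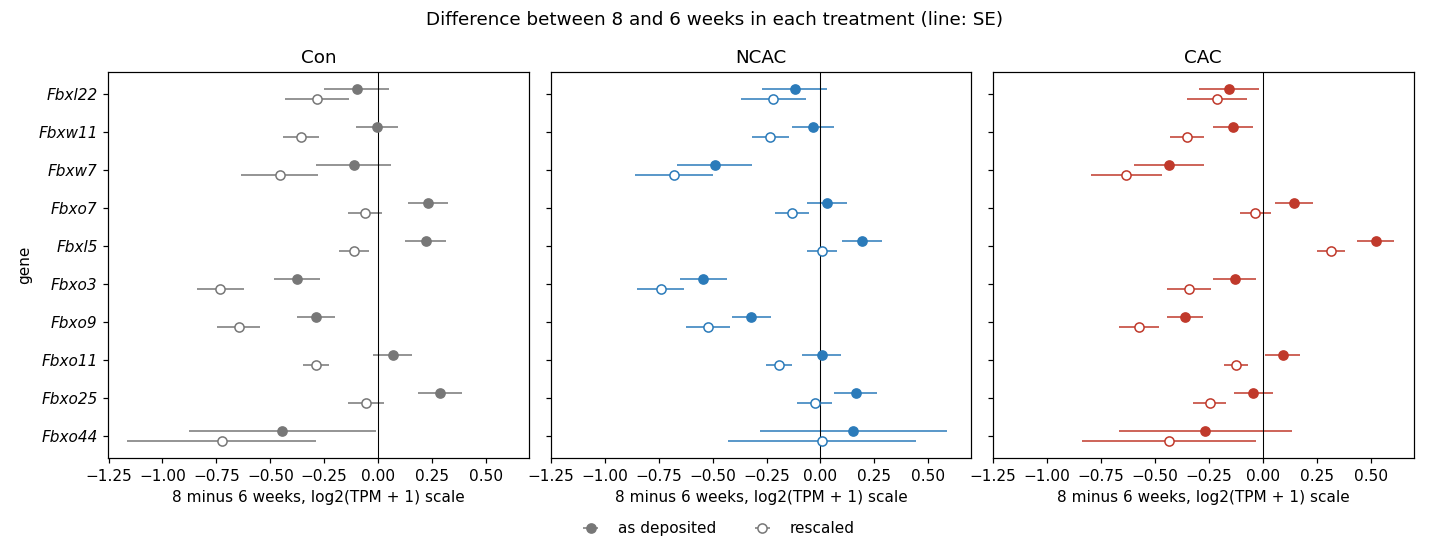
Difference between 8 and 6 weeks in log2(TPM + 1) (horizontal axis) with standard errors for 10 F-box genes in Con, NCAC and CAC (1 panel each), on the deposited scale and after median-of-ratios rescaling. Fbxl5 in CAC (0.52 deposited, 0.32 rescaled) lies above 0 on both scales, and Fbxo3 and Fbxo9 in Con and NCAC lie below 0 on both.

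Non-cachectic cells and the early weeks gave no member call. In limma 0 of 10 members passed for NCAC against Con at 2, 4, 6 or 8 weeks (0.00739%, 0%, 0% and 0% of all genes), and of these 40 tests 1 had an unadjusted p under 0.05, that of Fbxo3 at 2 weeks. Of all genes, 547, 55, 130 and 1205 had an unadjusted p under 0.05 in these 4 comparisons. Likewise 0 members passed for CAC against Con at 2 weeks (0.00739%) or 4 weeks (0.621%; 0.584% higher and 0.037% lower) and for CAC against NCAC at 2 weeks (0.0517%) or 4 weeks (1.48%; 0.0739% lower), and 0 had an unadjusted p under 0.05. Of all genes, 435, 1447, 1289 and 2250 did, in the same order. The CAC minus Con difference changed for 0 members from 2 to 6 weeks (0.177% of all genes, 0.0222% lower) and for 0 from 6 to 8 weeks (1.46%), with 2 members each at an unadjusted p under 0.05: Fbxl22 and Fbxw11, then Fbxo25 and Fbxl5. Of all 13529 genes, 1330 and then 2523 were under that value.

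Fbxo44, known for the turnover of BRCA1 and the G-protein regulator Rgs2, differed more between libraries of the same group than between group means. Con at 6 weeks measured 4.91, 4.19, 7.79, 4.54 and 4.22 TPM, and CAC at 6 weeks 5.71, 5.50, 5.18, 1.75 and 6.59 TPM. CAC at 4 weeks measured 1.22, 1.40, 8.25, 5.02 and 8.11 TPM, and NCAC at 4 weeks 4.27, 7.10, 0.944, 0.938 and 6.38 TPM. High and low libraries were thus found side by side in one group and treatment. Of 62 libraries, 14 were below 3 TPM (the highest at 2.19), 35 lay between 3.08 and 5.71 TPM, and 13 were at 6.05 TPM or more, with bounds set after the values were seen. The ratio of the highest to the lowest library in a group ran from 1.86 in Con at 6 weeks, to 8.92 in CAC at 8 weeks. No comparison called Fbxo44, and its CAC against Con difference at 6 weeks was -0.10 with an SE of 0.43 (limma adjusted p = 0.898).

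Genes whose log2(TPM + 1) followed Fbxo44 closely over the 45 libraries of weeks 2 to 6 included Akr1e1 (r = 0.72) and Miip (r = 0.50), and over all 62 libraries r was 0.55 and 0.47. Fbxo44 is at chr4:148152800-148160482 on the minus strand, and Miip lies 284 kb away on the same chromosome. The gene nearest to Fbxo44, the F-box gene Fbxo6 at 0.66 kb, had r = 0.02 over 62 libraries. These correlations describe the 62 libraries, whose points share the library total and the muscle they came from.

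**Figure D5:**
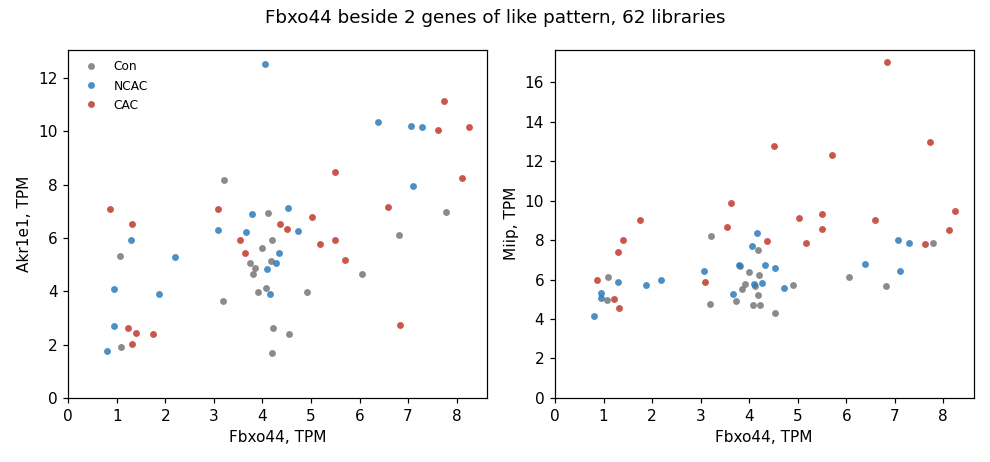
Fbxo44 level in TPM (horizontal axes) against Akr1e1 and Miip in TPM (vertical axes, 1 panel each) in 62 libraries, coloured by treatment. Libraries of all 3 treatments are found at low and at high Fbxo44, from 0.796 to 8.25 TPM.

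Of 33 genes for the SCF core, its cullin regulators and partner enzymes, 6 rose and 1 fell in CAC against Con at 6 weeks. Of all genes tested, 21.7% rose and 2.42% fell. The median difference was 0.13 against 0.16 over all genes. After rescaling 1 rose and 4 fell, beside 6.73% of all genes in each direction. The scaffold gene Cul1 rose by 0.32 (65.9 ± 9.03 against 52.4 ± 4.75 TPM, SD, n = 5 each, limma adjusted p = 0.00607). The neddylation cofactor genes Dcun1d3 and Dcun1d1 rose by 0.51 (limma adjusted p = 0.00511) and 0.25 (0.0149), and the ubiquitin-conjugating enzyme gene Ube2d1 fell by 0.49 (0.00151). At 8 weeks 4 rose and 0 fell, beside 6.31% and 4.26% of all genes. After rescaling it was 1 and 1, beside 5.89% and 7.08%. The 4 were the COP9 signalosome genes Cops2 (0.52, limma adjusted p = 0.00701) and Cops4 (0.29, 0.0492), the conjugating enzyme gene Ube2d3 (0.51, 0.0161) and Dcun1d1 (0.35, 0.0250).

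Of 24 tested genes for recorded substrates and partners of the members, 4 rose and 1 fell in CAC against Con at 6 weeks. Of all genes, 21.7% rose and 2.42% fell. After rescaling 3 rose and 1 fell, beside 6.73% in each direction. The median difference was 0.26 against 0.16 over all genes. The Fbxw7 substrates Mcl1 and Myc rose by 0.68 (limma adjusted p = 0.000136) and 1.54 (0.000153), and Srebf1 by 0.83 (0.0117), while the cyclin gene Ccne2 fell by 0.36 (0.0368). At 8 weeks 3 rose and 0 fell on either scale. Of all genes, 6.31% rose and 4.26% fell as deposited, and 5.89% and 7.08% after rescaling. The 3 were Mcl1 by 0.72 (limma adjusted p = 0.00821), the IkB gene Nfkbia by 0.88 (0.0232) and Myc by 1.20 (0.0399). Protein levels, on which these ligases act, were not measured.

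Among the other 44 tested F-box genes, which include the classic atrophy genes of the Fbxo class, 7 rose and 0 fell in CAC against Con at 6 weeks. Of all genes, 21.7% rose and 2.42% fell. The median difference of these F-box genes was 0.19. After rescaling 2 were higher and 1 lower, beside 6.73% of all genes in each direction. Fbxo31 rose from 46.3 ± 2.92 to 142 ± 66.9 TPM (SD, n = 5 each; 1.46, limma adjusted p = 0.000719). Fbxw2, Fbxo6 and Fbxw8 rose by 0.38 (limma adjusted p = 0.00234), 0.47 (0.00336) and 0.34 (0.0157). Fbxo30, Trim63 and Fbxo32 differed by 0.33 (limma adjusted p = 0.125), 0.65 (0.191) and 0.23 (0.635); Trim63 encodes a RING ligase without an F-box. At 8 weeks Fbxo31 rose by 1.78 (limma adjusted p = 0.00681) and Fbxo30 by 0.46 (0.0427), with Fbxw17 lower at -0.99 (0.0440). Of all genes, 6.31% rose and 4.26% fell at that week. The classic atrophy ligases summed to 385 to 2061 TPM in CAC and 281 to 454 TPM in Con at 8 weeks. On the log2(TPM + 1) scale the differences of Fbxw11, Fbxo7 and Fbxl22 at 6 weeks, 0.36, 0.24 and -0.48, were each smaller in size than that of Fbxo31. That scale understates changes of Fbxl22, which fell by 0.98 with a pseudocount of 0.1.

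The genes most like each member over the 45 libraries of weeks 2 to 6 were taken from 8499 genes with a mean of at least 5 TPM, by Pearson r of log2(TPM + 1), as a description. For Fbxl22 these were Reep1 (r = 0.82), Ak1 (0.82) and Itgb1bp2 (0.79), and over 62 libraries r was 0.80, 0.71 and 0.75. For Fbxw11 they were Cnot1 (0.90), Ubqln1 (0.88) and Atxn1l (0.88), for Fbxo7 Trim3 (0.84), Actr8 (0.82) and Fance (0.82), and for Fbxo11 Nvl (0.84), Rdx (0.83) and Med13 (0.83). For Fbxw7 they were the chaperone genes Dnaja4 (0.80) and Hspb3 (0.79) and the muscle gene Atp1b4 (0.76), with r of 0.88, 0.86 and 0.84 over 62 libraries. For the other members some genes kept a like r over 62 libraries and some did not. With Fbxl5, Nlrx1, Fxr1 and Vps50 had r of 0.73, 0.70 and 0.70 over 45 libraries and -0.24, -0.55 and 0.34 over 62. With Fbxo9, Slc7a6, Rab12 and Uri1 went from 0.67, 0.66 and 0.66 to -0.07, 0.78 and 0.32. With Fbxo3, Gpam, Ptpn3 and Wls went from 0.80, 0.74 and 0.73 to 0.73, 0.89 and -0.31. With Fbxo25, Sipa1l1, Rptor and Acad9 went from 0.70, 0.63 and 0.63 to 0.63, 0.17 and 0.68. Among the members themselves over 45 libraries, Fbxl22 had r = -0.54 with Fbxw11 and -0.53 with Fbxo7, Fbxo7 had r = -0.53 with Fbxw7, and Fbxo11 had r = 0.59 with Fbxw11 and 0.57 with Fbxl5. Points of one week and treatment share their condition, and all values share the library total.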

How the data were processed

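Soleus mRNA libraries (stranded mRNA kit, per the labels' protocols) were read as the TPM values that the authors deposited in 1 table of 47643 genes and 62 libraries; per the submitters' processing notes the build is mm10, and the sources used here name no aligner or quantifier and do not say whether strand was used. Libraries were matched to groups by their titles. TPM is not a count, so log2(TPM + 1) was tested with limma 3.58.1 in R 4.3.3 (intensity trend), after keeping genes of at least 1 TPM in at least 5 libraries. Weeks 2, 4 and 6 and comparisons across weeks were fitted on all 62 libraries in 12 groups, and treatments at 8 weeks on the 17 libraries of that week. P-values were adjusted by Benjamini-Hochberg over 13529 genes within each of 17 comparisons, with a threshold of 0.05, and the fit was tested on simulated data. Median-of-ratios rescaling divided each library by the median ratio of its genes to their geometric means. Summaries and figures used Python 3.11.15, numpy 2.4.6, pandas 2.3.3 and matplotlib 3.10.9. Positions come from GENCODE M21 and promoters from RefSeq. The genes and the gene lists were chosen with earlier results of these data known. Every member is described; of each list, the genes with the smallest adjusted p were named, up to 4 per comparison, and genes near the threshold as values; Actn2, Flnc and, for 8 against 6 weeks, Ireb2 and Tfrc were named after their values were seen. Alternatives were another pseudocount, no filter, rescaling, sample quality weights, a replicate block, other sets of libraries in the fit and leaving out each library; 1 variance per group was added after seeing the data. No 2 libraries held identical values. Same-numbered libraries did not deviate together, so replicate numbers were not used to pair them. Some genes that this rule would name are not reported here.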

Additional observations from a re-analysis of the deposited data

Results flagged for a closer look

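Of 120 sets of 1 gene in 1 group, 12 held a library whose gap to its nearest neighbour was large against the range of the group (above Dixon's critical value); chance gives about 1 in 20. Fbxl22 had 3: replicate 3 of CAC at 8 weeks at 1.83 TPM (the others 0.131 to 0.426), replicate 3 of NCAC at 2 weeks at 1.90 TPM (0.951 to 1.18), and replicate 5 of NCAC at 8 weeks at 1.41 TPM (0.593 to 0.829). Fbxo3 had 2 in week 8, replicate 2 of Con at 19.5 TPM (26.0 to 28.1) and replicate 2 of NCAC at 29.5 TPM (22.1 to 23.1). Fbxo25 had replicate 4 of Con at 8 weeks at 13.9 TPM (15.7 to 16.3). Fbxo44 had replicate 3 of Con low at 4 weeks, 1.09 TPM (3.81 to 4.205), and replicate 3 of Con high at 6 weeks, 7.79 TPM (4.19 to 4.91). Fbxw11 had replicate 4 of Con at 2 weeks at 23.3 TPM (28.2 to 29.0) and replicate 5 of NCAC at 4 weeks at 31.0 TPM (25.8 to 26.2). Fbxw7 had replicate 4 of Con at 4 weeks at 15.5 TPM (17.1 to 17.7) and replicate 1 of Con at 6 weeks at 22.7 TPM (13.1 to 15.7).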

How the results depend on the processing

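Counts are of the 10 members past adjusted p 0.05. Median-of-ratios rescaling gave, for CAC against Con at 6 weeks, 0 higher and 2 lower (2 and 1 as reported); against NCAC at 6 weeks, 0 and 3 (1 and 0); for CAC at 8 weeks, 1 lower against Con (0) and 0 higher and 1 lower against NCAC (2 and 0). Between 8 and 6 weeks it gave 0 higher and 5 lower in Con (3 and 2), 5 lower in NCAC (3) and 5 lower in CAC (2), and 1 higher change of the CAC effect from 6 to 8 weeks (0). It reversed Fbxl5 to -0.11, Fbxo25 to -0.055 and Fbxo7 to -0.062 in Con at 8 against 6 weeks; rescaling by construction holds the median gene level. For CAC against Con at 6 weeks the higher count was 1 in each of the compared groups alone, no filter and pseudocount 0.1. At 8 weeks against Con, all 62 libraries gave 1 higher and 3 lower, no filter 1 higher, pseudocount 0.1 1 lower, and sample quality weights 2 higher and 3 lower. Against NCAC at 6 weeks, the compared groups alone gave 0 higher, and sample quality weights 2 higher and 2 lower. There the fit without week 8 gave 2 higher (Fbxw11 and Fbxo7) and 2 lower (Fbxl22 and Fbxo3). Fbxo3 was at -0.24 (limma adjusted p = 0.0113, and 0.0845 in the fit as designed). Against NCAC at 8 weeks, all 62 libraries gave 4 higher and 1 lower and the compared groups alone 0 higher. In CAC at 8 against 6 weeks, 1 variance per group and the compared groups alone each gave 1 lower. Sample quality weights gave 1 lower for the CAC effect from 2 to 6 weeks, 2 lower for NCAC against Con at 8 weeks, and 1 higher for NCAC at 8 against 6 weeks. The compared groups alone leave fewer samples; for the other settings the cause was not tested. With the replicate block the count was 1 lower for CAC against NCAC at 6 weeks and 1 lower for CAC at 8 against 6 weeks, and the other counts stayed within 1.5 times; the numbers do not pair the libraries, since 15 of 60 same-numbered pairs had r over 0.1 and the median r was -0.01.

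Leaving out 1 library at a time gave 1 to 3 higher and 0 to 1 lower for CAC against Con at 6 weeks, 0 to 3 lower at 8 weeks (3 without CAC replicate 3), 1 to 3 higher and 0 to 1 lower against NCAC at 6 weeks, and 0 to 3 higher and 0 to 1 lower at 8 weeks. Between 8 and 6 weeks it gave 1 to 2 higher and 1 to 3 lower in CAC (3 without replicate 3 of week 8, with Fbxl22 added), 1 to 3 higher in Con, and 0 to 2 higher and 2 to 3 lower in NCAC. Depth is unknown for TPM, so no counting error can be given.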
